A study of Mus musculus with 4 samples.

Results

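The genes described here encode the voltage-gated sodium channels and the voltage-gated calcium channels, in newborn mouse brain with and without CIC (capicua), a transcriptional repressor. They are the 39 gene rows of the deposited table, out of 20793, whose symbols begin with Scn and end in a number and the letter a or b, or begin with Cacna, Cacnb or Cacng, the epithelial sodium channels being left out. There were 13 sodium channel genes and 26 calcium channel genes, or 19 that encode a pore and 20 that encode an auxiliary subunit. The main brain sodium channel gene Scn2a is listed in the table under its older symbol Scn2a1, which falls outside that naming rule, so its values are given but it is in no count.

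Whole brain RNA from postnatal day 1 was sequenced in 2 wild-type (WT) libraries and 2 knockout (KO) libraries, replicates A and B of each. The knockout animals carry Nes-Cre and Cic alleles flanked by loxP sites (CIClox/lox). Nes-Cre is Cre recombinase under Nestin regulatory sequence, which is active in neural progenitors, so cells of other origin such as microglia and blood would keep the gene. For the WT animals the titles give floxed alleles with no Cre, while the genotype field gives Nes-Cre;CIC+/+. The conflict was not resolved, and groups follow the description field. Nothing states that the libraries are from separate animals, so the p-values below measure the spread between these samples only. Values are FPKM, fragments scaled by transcript length and by the number of mapped fragments, so levels can be compared between genes.

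A sodium channel is built around a single large alpha protein that forms the pore and opens on depolarisation to start the action potential, with small beta subunits that tune gating and cell adhesion. A calcium channel has an alpha1 pore protein, a cytoplasmic beta subunit and an extracellular alpha2delta subunit, which bring the pore to the membrane. L-type, P/Q-, N-, R- and T-type channels differ in the pore gene and serve gene regulation, transmitter release and rhythmic firing. Most of the genes named as calcium channel gamma subunits instead encode TARPs, partners of AMPA-type glutamate receptors.

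Cic itself had 51.3 and 56.4 FPKM in WT and 19.1 and 22.2 FPKM in knockout brain, with limma's adjusted p of 0.213 over all genes. The knockout libraries differed from each other in markers of brain regions. Markers of forebrain excitatory neurons (6 genes) summed to 512 and 534 FPKM in WT, 389 in KO A and 225 in KO B. Markers of subcortical glutamatergic neurons (4 genes) summed to 19.99, 19.8, 25.3 and 119 FPKM in the same order. Markers of hindbrain and spinal neurons (5 genes, among them Slc6a5) summed to 0.00931, 0.0229 and 0.00778 FPKM in WT A, WT B and KO A, and to 12.7 FPKM in KO B. The 6 general neuron markers summed to 2849 and 2794 FPKM in WT, 2783 in KO A and 2418 in KO B. All 6 were below both WT libraries in KO B, with a median log2 difference of -0.27 there, among them Syt1 at -0.63 and Map2 at -0.40. In whole tissue, fewer cells of a type and less RNA per cell cannot be told apart.

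No sodium or calcium channel gene passed the test over all genes. Of the 39 genes, 30 had a mean of 1 FPKM or more and were tested on log2(FPKM + 1), a scale that understates the change of low genes. Limma called 0 of the 30 at an adjusted p under 0.05, against 0.0472% of all 12703 rows tested, and the lowest adjusted p was 0.439. At an unadjusted p under 0.05 there were 3 (Cacna2d2, Cacnb2 and Cacng1, all higher in knockout brain), or 10% of the channel genes against 10.2% of all rows. The knockout values were both above the WT pair for 9 of the 30 genes, or 30.0%, against 27.1% of all rows. Both lay below for 4 genes, or 13.3%, against 21.7% of all rows. The share above WT was near that of the whole table, and the share below was under it, a difference that was not tested.

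Pore-forming and auxiliary genes had medians close to 0. The median log2 difference of knockout against WT was 0.02 for the 13 tested pore genes and 0.04 for the 17 tested auxiliary genes, beside 0.02 for all tested rows. The medians were 0.08 and 0.15 in KO A and -0.13 and -0.07 in KO B, where all rows had 0.01 and 0.03. Of the pore genes 3 lay above (23.1%) and 3 below (23.1%) in both knockout libraries. Of the auxiliary genes 6 lay above (35.3%) and 1 below (5.88%). The shares of all rows were 27.1% and 21.7%, and the differences from them were not tested. Summed over all 20 auxiliary genes the level was 584 and 580 FPKM in WT, 634 in KO A and 545 in KO B. The 19 pore genes, without Scn2a1, summed to 141, 142, 149 and 140 FPKM. The auxiliary sum was between 3.91 and 4.25 times this pore sum. Gamma genes, most of them TARP genes, held 288 and 287 FPKM of the auxiliary sum in WT, 320 in KO A and 287 in KO B. The ratio therefore depends on the naming rule, which counts TARP genes and leaves out Scn2a1.

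**Figure D1:**
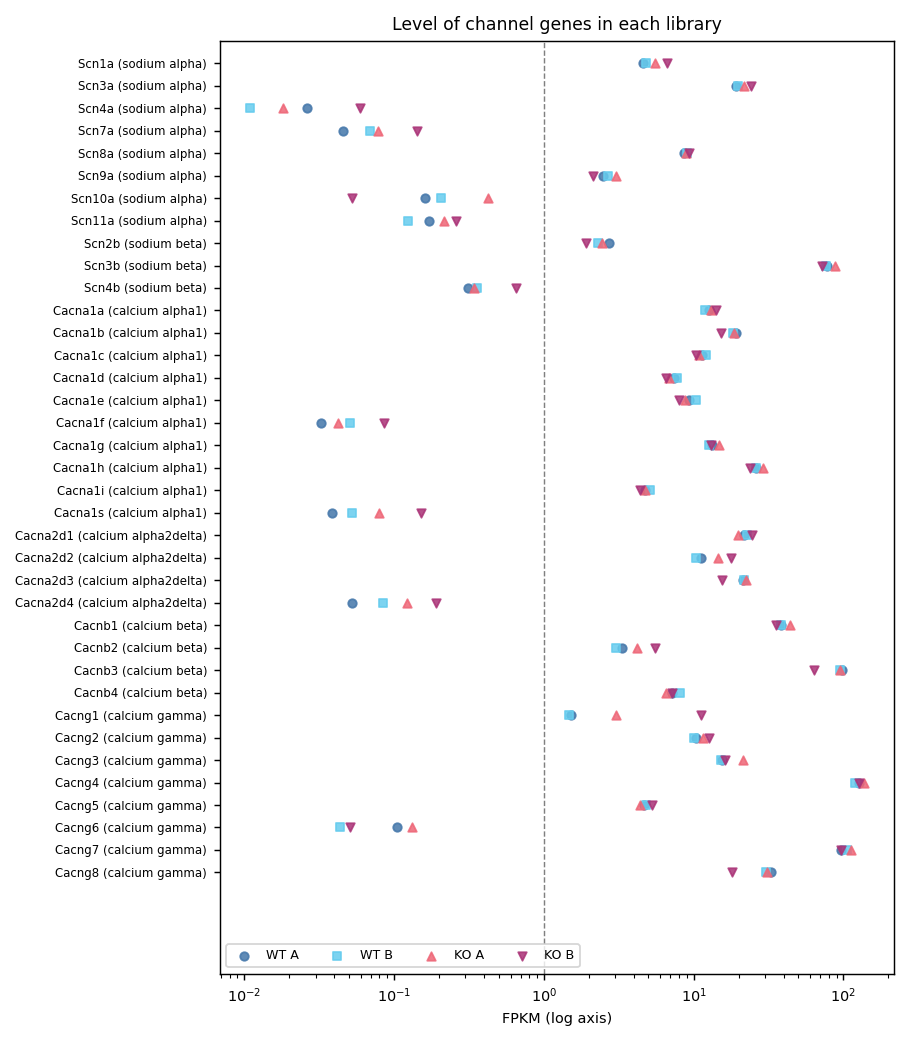
FPKM of the channel genes in the 4 libraries, on a log axis, with the subunit role in brackets. The dashed line marks 1 FPKM, and the 9 genes with every library left of it were not tested.

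Scn1a and Scn3a had the largest positive differences among the tested pores. Scn3a, an alpha gene prominent before and around birth, lies in a cluster of 5 sodium channel genes on chromosome 2 (mm9, 65295175 to 65405549). It had 19.1 and 19.8 FPKM in WT and 21.9 and 24.0 FPKM in knockout brain. Scn1a, whose protein supports firing of fast inhibitory neurons and whose loss causes epilepsy, lies in the same cluster (66108839 to 66278894). It had 4.61 and 4.80 FPKM in WT and 5.49 and 6.63 FPKM in knockout brain. For both genes the groups did not overlap and KO B was the highest library. The log2 differences were 0.23 ± 0.10 (SE) for Scn3a and 0.30 ± 0.12 for Scn1a, with limma's adjusted p of 0.518 and 0.498.

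Scn2a1, which encodes the main early pore of excitatory axons, lies between these genes (65508502 to 65605504) and had another order of libraries. It had 23.6 and 23.8 FPKM in WT, 23.8 in KO A and 15.2 in KO B. The first 3 libraries were nearly level and KO B alone was low, so the groups overlapped (log2 difference -0.30 ± 0.22, SE; limma's adjusted p of 0.593). The ratio of Scn3a to Scn2a1 was 0.809 and 0.832 in WT, 0.920 in KO A and 1.58 in KO B. In rodents Scn2a is known to take over from Scn3a as the brain matures after birth. Whether maturity or the make-up of the tissue had a part in this ratio was not tested. Scn9a, also in the cluster and best known from pain-sensing neurons, had 2.47 and 2.69 FPKM in WT, 3.05 in KO A and 2.12 in KO B.

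Scn8a, the alpha gene of the mature axon initial segment, was almost level, with 8.67 and 9.01 FPKM in WT and 8.87 and 9.34 FPKM in knockout brain (log2 difference 0.04 ± 0.09, SE). Below the filter were 4 alpha genes. They are Scn4a of skeletal muscle, the sodium sensor gene Scn7a, and Scn10a and Scn11a of sensory ganglia, which lay between 0.0110 and 0.424 FPKM.

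Because CIC is known to bind the octamers TGAATGAA and TGAATGGA, and their forms with TC in place of the first TG (TCAATGAA and TCAATGGA), these were looked for on both strands of promoter windows. The windows are RefSeq's (GRCm38.p6), from 250 bases before to 50 bases after an annotated start, and 29 of the 39 genes had at least 1. No window was used for Cacna1a, Cacna1g, Cacna1h, Cacna2d4, Cacng1, Cacng4, Scn3a and Scn3b, among others. Of 39 windows of the other genes 2 held an octamer, beside 3.84% of all 32851 windows. Both matches were to TGAATGGA, which 1.21% of all windows hold. They are printed because they are the only channel windows with the letters, shown in capitals. The first lies at chr15:100936021-100936320 on the plus strand, 1 of 2 windows of Scn8a, with the match starting 89 bases before the start. The second lies at chr9:119718983-119719282 on the minus strand and holds the reverse complement, starting 138 bases before the start of Scn10a.
Scn8a: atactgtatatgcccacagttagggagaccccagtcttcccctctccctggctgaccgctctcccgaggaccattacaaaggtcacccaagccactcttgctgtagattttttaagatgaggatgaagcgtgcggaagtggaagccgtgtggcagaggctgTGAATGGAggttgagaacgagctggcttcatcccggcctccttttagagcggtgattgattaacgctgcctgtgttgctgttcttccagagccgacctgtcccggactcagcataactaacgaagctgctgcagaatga
Scn10a: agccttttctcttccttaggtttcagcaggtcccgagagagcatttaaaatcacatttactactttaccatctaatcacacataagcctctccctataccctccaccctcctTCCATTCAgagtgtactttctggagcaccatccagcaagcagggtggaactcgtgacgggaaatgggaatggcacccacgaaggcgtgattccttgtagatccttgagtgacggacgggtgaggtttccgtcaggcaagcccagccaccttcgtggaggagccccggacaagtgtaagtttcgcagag
The level of Scn8a was the closest to WT among the tested sodium alpha genes other than Scn9a. Scn10a had 0.161 and 0.207 FPKM in WT, 0.424 in KO A and 0.0521 in KO B, with knockouts on either side of WT. A match is no evidence of binding, and its absence says only that the letters are not in the window.

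Scn3b, the dominant beta gene of newborn brain, had 77.3 and 76.5 FPKM in WT, 88.2 in KO A and 72.4 in KO B. It made up between 81.2% and 82.3% of the beta gene FPKM in each library. Scn2b had 2.71 and 2.30 FPKM in WT and 2.44 and 1.92 FPKM in knockout brain, and Scn4b, a beta gene of fast-firing neurons, was below the filter at 0.311 to 0.650 FPKM. For Scn2b and Scn3b the groups overlapped, with log2 differences of -0.14 and 0.05.

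Among the tested calcium channel pores, Cacna1c, Cacna1d and Cacna1e lay slightly lower in both knockout libraries. Cacna1e, the R-type pore gene, had 9.35 and 10.4 FPKM in WT and 8.82 and 7.94 FPKM in knockout brain. Cacna1c, the main L-type pore gene of brain and heart, had 11.3 and 12.1 FPKM in WT and 10.8 and 10.3 FPKM in knockout brain. Cacna1d, the other L-type pore gene of neurons, had 7.42 and 7.79 FPKM in WT and 6.84 and 6.59 FPKM in knockout brain. In each of these the groups did not overlap, but the gap between the nearest WT and knockout libraries exceeded the distance between the WT libraries only for Cacna1d. Their log2 differences were -0.22 ± 0.11, -0.14 ± 0.10 and -0.16 ± 0.09 (SE), with limma's adjusted p of 0.540, 0.578 and 0.561. The loci of Cacna1c and Cacna1d overlap those of the decapping genes Dcp1b and Dcp1a, and without a stated strand setting their shared reads cannot be told apart.

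Cacna1a, the P/Q-type pore gene of fast synapses and of the cerebellum, went the other way, with 12.7 and 11.9 FPKM in WT and 13.1 and 14.2 FPKM in knockout brain (log2 difference 0.14 ± 0.10, SE; limma's adjusted p of 0.593). Its groups did not overlap, with the lower knockout library just above the higher WT library. Cacna1b, the N-type pore gene of presynaptic terminals, had 19.2 and 18.4 FPKM in WT, 18.5 in KO A and 15.1 in KO B. The T-type gene Cacna1h was the most abundant pore gene of this family, at 26.02 and 26.08 FPKM in WT, 29.2 in KO A and 24.0 in KO B. Cacna1g, the T-type gene of thalamic relay neurons, lay between 12.7 and 14.8 FPKM and Cacna1i between 4.39 and 5.10 FPKM, with overlapping groups. Cacna1f of retina and Cacna1s of skeletal muscle were at 0.152 FPKM or less. By summed FPKM, T-type genes made up 42.3% and 41.9% in WT and 45.6% and 43.3% in knockout brain, and L-type genes 18.1%, 19.1%, 16.6% and 17.9%. P/Q-, N- and R-type genes made up the rest, between 37.8% and 39.6%.

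**Figure D2:**
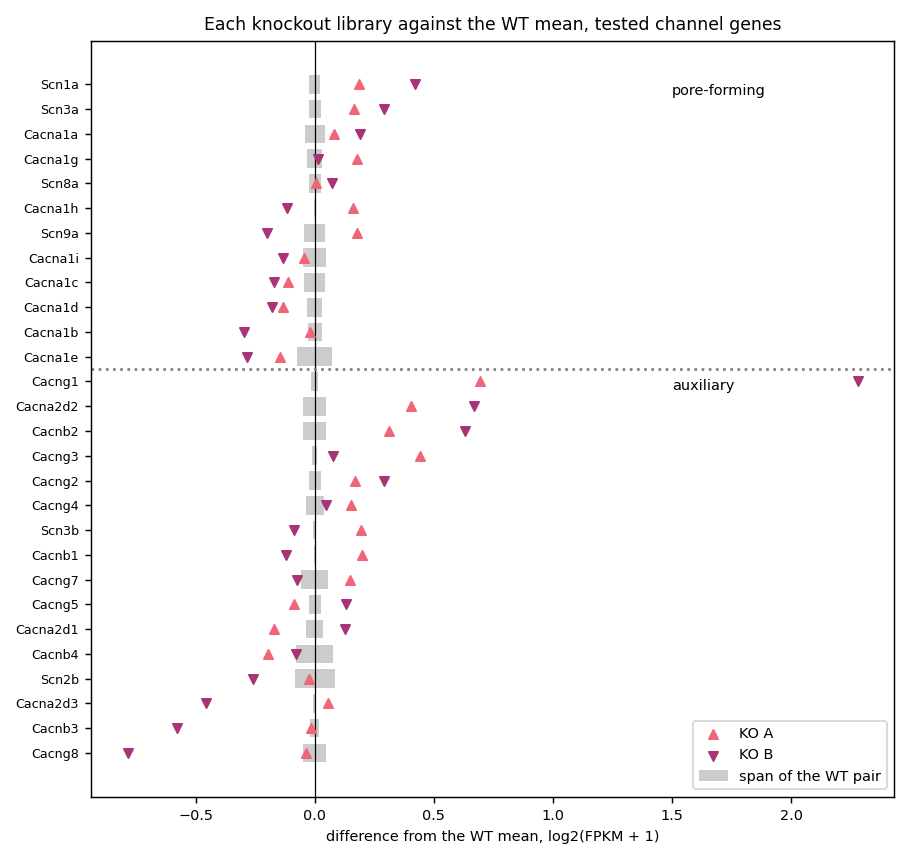
Difference of each knockout library from the WT mean on the log2(FPKM + 1) scale for tested genes, pore-forming above the dotted line and auxiliary below it, with the grey bar spanning the WT pair. Cacng1 in KO B (2.28) is farthest from WT, and Cacng8, Cacnb3 and Cacna2d3 are low in KO B alone.

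Cacna2d2 and Cacnb2 had the lowest adjusted p of the auxiliary genes. Cacna2d2 (chromosome 9, 107302211 to 107431674) encodes an alpha2delta subunit abundant in cerebellum and is a target of gabapentin. It had 11.2 and 10.4 FPKM in WT, 14.7 in KO A and 17.8 in KO B. Both knockout libraries were above WT, and the mean was 1.499 times that of WT. This is a log2 difference of 0.54 ± 0.13 (SE), at limma's adjusted p of 0.439. Cacnb2 (chromosome 2, 14525933 to 14909535), a beta subunit gene prominent in heart and also used in brain, had 3.33 and 3.05 FPKM in WT, 4.20 in KO A and 5.49 in KO B. Its knockout mean was 1.52 times that of WT, with a log2 difference of 0.47 ± 0.14 and limma's adjusted p of 0.470. The order of the libraries was the same for both genes, KO B highest. Without KO B their log2 differences were 0.41 and 0.31. The 6 cerebellum markers summed to 28.6 and 31.5 FPKM in WT, 51.0 in KO A and 92.2 in KO B, but the single markers did not share this order. Zic1 had 9.51 and 13.01 FPKM in WT, 28.6 in KO A and 61.8 in KO B. Besides Zic1, only Car8 was above WT in both knockout libraries, narrowly in KO A (2.36 against 2.33 FPKM in WT A). Pcp2, Barhl1 and Atoh1 were above WT in KO B alone. Calb1 was highest in KO A (18.7 FPKM) and lowest in KO B (10.4 FPKM). The subcortical sum was also highest in KO B, while the hindbrain sum was near 0 in KO A. The part of these cells in the values was not tested.

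The other alpha2delta genes had other orders of libraries. Cacna2d1, the widespread alpha2delta gene, had 21.7 and 22.9 FPKM in WT, 19.7 in KO A and 24.5 in KO B. Cacna2d3 had 21.4 and 21.6 FPKM in WT, 22.4 in KO A and 15.4 in KO B, so only KO B was low. Cacna2d2 accordingly made up 20.6% and 18.9% of alpha2delta FPKM in WT, 25.8% in KO A and 30.7% in KO B, while the family sum was 54.4 to 57.9 FPKM throughout. Cacna2d4, best known from the retina, was at 0.191 FPKM or less and its locus overlaps that of Lrtm2, which had 6.24 to 11.8 FPKM.

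Cacnb3, the most abundant beta gene, had 97.3 and 94.8 FPKM in WT, 94.9 in KO A and 63.9 in KO B. WT and KO A were level and KO B was the low library (log2 difference -0.30 ± 0.21, SE; limma's adjusted p of 0.579). Cacnb1, the beta gene shared with skeletal muscle, had 38.4 and 38.5 FPKM in WT, 44.3 in KO A and 35.3 in KO B. Cacnb4, whose loss gives the ataxic lethargic mouse, had 7.17 and 8.09 FPKM in WT and 6.53 and 7.16 FPKM in knockout brain. Its groups were separated by less than the distance between the WT libraries. Cacnb3 made up 66.5% and 65.6% of beta FPKM in WT, 63.3% in KO A and 57.1% in KO B.

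**Figure D3:**
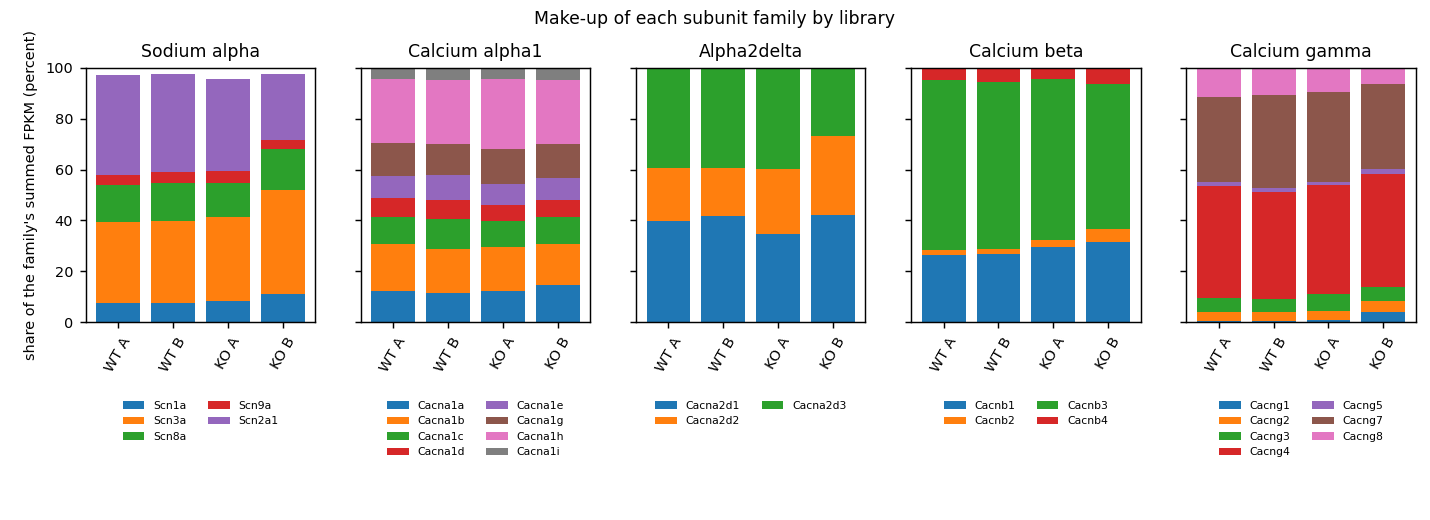
Share of each gene in the summed FPKM of its subunit family, as stacked bars for the 4 libraries, with Scn2a1 included among the sodium alpha genes and genes under 1% in every library or not reported here left out of the bars. KO B has less Scn2a1 (25.8%), Cacna2d3 (26.7%) and Cacng8 (6.25%) than the other libraries and more Scn3a (40.9%) and Cacna2d2 (30.7%).

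Cacng1 had the largest difference of the tested channel genes. It encodes the gamma subunit of the skeletal muscle calcium channel (chromosome 11, 107564532 to 107577790). It had 1.53 and 1.48 FPKM in WT, 3.05 in KO A and 11.2 in KO B. The WT libraries were level, KO A was 2.03 times and KO B 7.43 times the WT mean. Over both, knockout exceeded WT by a log2 value of 1.49 ± 0.53 (SE), at limma's adjusted p of 0.485. It was the only one of the 30 genes whose knockout libraries were apart by a log2 value of 1 or more, as were 1.58% of all rows. Without KO B the log2 difference was 0.69, and without KO A it was 2.28 (adjusted p of 0.00108, in a range up to 1 over the alternatives).

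The 6 skeletal muscle markers summed to 5.0 and 4.87 FPKM in WT, 6.04 in KO A and 3.43 in KO B, and 5 of them were under 1 FPKM in every library. Most of each sum was Acta1, a muscle actin gene, at 4.24, 3.70, 4.54 and 2.66 FPKM in that order, while Myog had 0.0205, 0.0517, 0.102 and 0.0597 FPKM. The pore that Cacng1 partners in muscle, Cacna1s, was at 0.0383 and 0.0520 FPKM in WT, 0.0789 in KO A and 0.152 in KO B. Its muscle relative Cacng6 lay between 0.0437 and 0.131 FPKM. Whether muscle cells had a part in the Cacng1 values was not tested. The nearest listed gene on either side on chromosome 11 was closer to WT, and its bearing on Cacng1 was not tested either. Helz, whose nearer end is 16275 bases away, had 5.14, 5.10, 4.68 and 6.52 FPKM in WT A, WT B, KO A and KO B, and Cacng4, 18304 bases away on the other side, had 126, 120, 137 and 127 FPKM.

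The TARP gene Cacng4 was the most abundant channel gene, and TARP genes differed by less than Cacng1. Cacng4 and Cacng7, the latter with 97.1 and 105 FPKM in WT, 112 in KO A and 96.1 in KO B, made up 41.7% to 44.4% and 33.5% to 36.7% of gamma FPKM. Cacng2, which encodes stargazin and carries AMPA receptors to the synapse, had 10.4 and 10.05 FPKM in WT and 11.6 and 12.7 FPKM in knockout brain. Cacng3 had 15.5 and 15.3 FPKM in WT, 21.3 in KO A and 16.3 in KO B. Cacng2, Cacng3 and Cacng4 lay above WT in both knockout libraries, with log2 differences of 0.23 ± 0.10, 0.26 ± 0.15 and 0.10 ± 0.10 (SE) and limma's adjusted p of 0.513, 0.559 and 0.676. Cacng5 lay between 4.39 and 5.27 FPKM with overlapping groups.

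Cacng8, the TARP gene enriched in hippocampus and forebrain, had 32.7 and 30.5 FPKM in WT, 30.8 in KO A and 17.9 in KO B. KO A lay within the WT pair and KO B was low (log2 difference -0.41 ± 0.26, SE; limma's adjusted p of 0.576). Cacng7 and Cacng6 lie on either side of it on chromosome 7. Cacng7 was 0.949 times the WT mean in KO B, where Cacng8 was 0.567 times. The same library was the low one for Cacnb3, Cacna2d3 and Scn2a1, and it was also the one with the lowest sums of forebrain excitatory and general neuron markers. The part of those cells in these values was not tested. When KO B alone was set against WT, limma called 6 channel genes higher, against 17.9% of all rows, and 4 lower, against 16.0%. The 6 were Cacng1, Cacna2d2, Cacnb2, Scn1a, Scn3a and Cacng2, and the 4 were Cacng8, Cacnb3, Cacna2d3 and Cacna1b. That fit has only the WT pair to estimate spread from and treats the single knockout library as varying to the same extent.

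**Figure D4:**
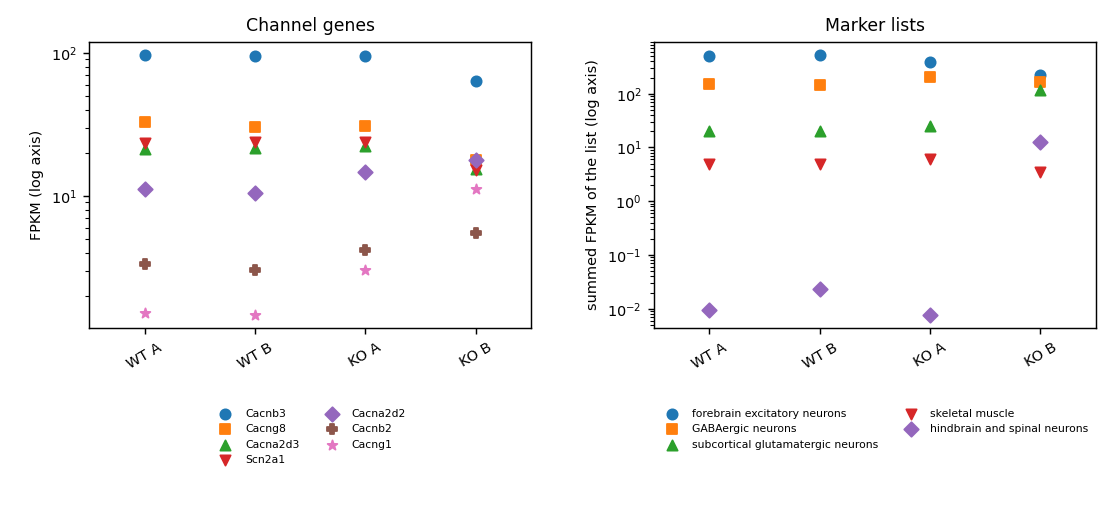
Left, FPKM of 7 channel genes by library; right, summed FPKM of 5 marker lists by library, both on log axes. KO B has the lowest Cacnb3, Cacng8, Cacna2d3 and Scn2a1 together with the lowest forebrain excitatory sum (225 FPKM). It also has the highest Cacng1 and the highest subcortical (119 FPKM) and hindbrain (12.7 FPKM) sums. Cacng1 is above WT in KO A too (3.05 FPKM), where the hindbrain sum is 0.00778 FPKM. Whether the marked cells had a part in the channel values was not tested.

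Genes of related channels and of channel partners were taken from lists. Of the NALCN sodium leak channel and its partners 4 of 4 were tested, 0 passed, and 3 lay above WT in both knockout libraries, as did 27.1% of all rows. Nalcn, the pore, had 8.69 and 8.28 FPKM in WT and 11.1 and 11.3 FPKM in knockout brain, with the knockout libraries close together. The log2 value was 0.37 ± 0.09 (SE) higher, at limma's adjusted p of 0.439. Unc80, which holds the complex together, had 2.11 and 2.26 FPKM in WT and 2.58 and 3.21 FPKM in knockout brain, and Fam155a 23.6, 22.1, 25.9 and 26.8 FPKM in the order WT A, WT B, KO A, KO B.

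Of 15 sodium channel partners 15 were tested and 0 passed, with 1 above and 7 below WT in both knockout libraries, beside 27.1% and 21.7% of all rows, and a median log2 difference of -0.11. Fgf11, an intracellular FGF that binds sodium channels, had 12.4 and 10.6 FPKM in WT, 9.79 in KO A and 3.79 in KO B. Ank3, which encodes the ankyrin that anchors sodium channels at the axon initial segment, had 25.5 and 27.6 FPKM in WT and 24.4 and 23.4 FPKM in knockout brain. Nedd4l, a ubiquitin ligase that removes sodium channels from the membrane, had 26.1 and 25.9 FPKM in WT, 23.4 in KO A and 17.3 in KO B.

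Of 21 calcium channel partners 18 were tested and 0 passed, with 1 above and 8 below WT in both knockout libraries, beside the same 27.1% and 21.7%, and a median of -0.13. Stac2, an adaptor of L-type channels, had 9.15 and 8.70 FPKM in WT, 7.02 in KO A and 4.63 in KO B (log2 difference -0.56 ± 0.19, SE; limma's adjusted p of 0.484). Cabp1, a calcium sensor of the same channels, had 16.6 and 15.2 FPKM in WT, 13.8 in KO A and 11.2 in KO B. In the single libraries the median was -0.01 (KO A) and -0.27 (KO B). Of 11 calcium release and store channel genes 11 were tested and 0 passed, with 4 above (36.4%) and 3 below (27.3%) WT in both, near the 27.1% and 21.7% of all rows, and a median of 0.06. Itpr1, the main neuronal inositol trisphosphate receptor, had 13.2 and 14.0 FPKM in WT and 8.87 and 10.8 FPKM in knockout brain. Stim1, the sensor that opens store-operated channels, had 9.26 and 9.96 FPKM in WT and 12.1 and 14.6 FPKM in knockout brain. Their log2 differences were -0.44 ± 0.12 and 0.43 ± 0.12 (SE), each with limma's adjusted p of 0.470. In both genes the gap between the groups exceeded the spread within the WT pair.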

How the data were processed

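The 4 libraries hold newborn (postnatal day 1) mouse brain RNA. Cufflinks 2.1.1, TopHat2 2.0.11, cutadapt, bcl2fastq 2.17 and the build mm9 appear, with no roles, in the submitters' processing notes. The authors deposited FPKM values for 20793 rows, the unit being inferred from Cufflinks and the values. Column sums were 440005 to 449559. Depth is unknown, and the most common ratios of low values (under 0.15 FPKM) put it at 1 to 1.21 relative to WT A. Deposited starts were raised by 1.

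Rows with a mean of 1 FPKM or more (12703) were fitted as log2(FPKM + 1) in limma 3.58.1 (R 4.3.3), knockout against WT, 2 against 2, two-sided, with Benjamini-Hochberg adjustment over all rows and a threshold of 0.05. The fit was tested on simulated data with the same spread in all 4 libraries, which these data do not have. Over all tested rows the median log2 distance within a pair was 0.19 for knockout and 0.067 for WT. The simulation therefore does not show how the fit behaves at such unequal spread. An exact permutation test of 2 against 2 cannot go below 0.333. Of the 6 rows called, 3 were higher, and the 3 lower are listed at 0 in both knockout libraries. No channel gene is listed at 0.

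Tested channel genes are named, apart from items not reported here, which stay in the counts and sums. Members, lists and markers were chosen with earlier results of these data known. The list genes given with values, the neighbour Helz and the overlapping genes were picked with their values known. Further marker lists, among them progenitors, glia, vessels, choroid plexus, sensory ganglia and blood, are in the closing section. Alternatives covered pseudocounts of 0.1 and 5, the filter (none, or 5 FPKM), rescaled medians, limma's trend, the replicate letter as a block, and each library left out.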

Additional observations from a re-analysis of the deposited data

How the results depend on the processing

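Of the 30 tested channel genes, 0 were called with either pseudocount, with rescaled medians, with the trend option, with the replicate block, or without WT A, WT B or KO B. With no filter 39 were tested and with a filter of 5 FPKM 23, and 0 were called in either. Leaving out 1 library at a time gave 0 to 10 called channel genes and 4 to 4305 called rows, with 27 rows without KO B. Both maxima came without KO A. The spread comes from the WT pair alone both in that fit and in the fit without KO B. The median log2 difference of pore genes then ran from -0.13 (without KO A) to 0.082 (without KO B). The replicate letters A and B need not pair the samples: deviations of same-letter libraries had a correlation of -0.013, and the replicate block called 7 rows against 6. Of 302 single-gene values under the alternatives, 280 kept sign and call, 10 became calls without KO A and 12 changed sign, in 8 genes. With 1 library left out, the log2 difference ran from -0.088 to 0.13 for Cacng5, -0.073 to 0.15 for Cacng7, -0.17 to 0.13 for Cacna2d1, -0.20 to 0.18 for Scn9a, -0.12 to 0.16 for Cacna1h, -0.45 to 0.055 for Cacna2d3, -0.12 to 0.20 for Cacnb1 and -0.086 to 0.20 for Scn3b. The cause was not tested. With unknown depth, genes under 1 FPKM cannot be given a counting error.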

Other observations

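Among GABAergic neuron markers, Gad1, Gad2 and Slc32a1 lay above WT in both knockout libraries, while the regulators Dlx1 and Dlx2 lay above in KO A and below in KO B. Gad1, which makes GABA, had 52.8 and 48.7 FPKM in WT, 77.3 in KO A and 70.3 in KO B, and the regulator Dlx1 had 29.7, 28.3, 37.6 and 21.0 FPKM in the same order. The 5 markers of the list summed to 151 and 144 FPKM in WT, 206 in KO A and 164 in KO B.

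Other marker lists, summed in the order WT A, WT B, KO A and KO B, gave 74.3, 72.3, 67.4 and 76.2 FPKM for progenitors and 113, 114, 122 and 103 for astrocytes. The oligodendrocyte lineage summed to 34.1, 39.4, 40.6 and 40.6 FPKM, microglia to 24.7, 27.1, 29.9 and 42.8, and endothelium and mural cells to 71.9, 86.8, 84.9 and 83.6. Choroid plexus markers summed to 147, 481, 960 and 1018 FPKM, so that the WT libraries themselves differed. Heart markers summed to 0.942, 0.893, 1.46 and 1.80 FPKM. Sensory ganglion markers summed to 12.5, 11.5, 21.7 and 26.6 FPKM, but different genes were high in KO A and KO B. Isl1 had 10.8, 9.85, 18.9 and 10.5 FPKM. Pou4f1 had 0.0406, 0.0422, 0.0249 and 7.81 FPKM, and Prph 0.792, 0.935, 1.36 and 6.91 FPKM. Blood markers summed to 194, 129, 9.26 and 702 FPKM. The hemoglobin gene Hba-a1, on more than 1 row, is listed at 0 in KO A, and such a 0 can be a failed estimate. The part of these cells in the channel values was not tested.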
